A study of Mus musculus with 24 samples.

Results

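The tendon and myotendinous matrix genes examined here were Comp, Chad, Fmod, Kera, Col14a1, Thbs4, Tnmd, Scx and Mkx. They were chosen by symbol: every probe that the platform annotation assigns to 1 of these 9 genes was taken, which gave 12 of 45281 probes. A probe was tested if its signal stood above the negative control beads (detection p under 0.05) on at least 6 of the 24 arrays. That left 10 of the 12 probes, covering 7 of the 9 genes, among 21788 tested probes in all.

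The samples were gastrocnemius-soleus complexes, the main calf muscles, from female mice aged 5 weeks, with 1 Illumina bead array per sample and 6 arrays in each of 4 groups. The groups were transgenic (α7Tg) mice 3 h after a downhill run, transgenic mice at rest, wild-type mice 3 h after the same run, and wild-type mice at rest. The single run lasted 40 min at 17 m/min on a 20° decline, after a 2 min warm-up that began at 10 m/min, and it loads the calf muscles while they lengthen. The series asks how the α7β1 integrin, a laminin receptor of muscle fibres concentrated at the myotendinous junction, bears on transcription after such a run. The labels do not give the background strain, the transgene's promoter or its insertion site, nor whether the mice of a group were littermates.

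Tendon is mostly collagen I fibrils laid down by tenocytes, and at the myotendinous junction those fibrils meet the folded end of the muscle fibre. Small leucine-rich proteoglycans (fibromodulin, keratocan) and thrombospondin-family proteins (Comp, Thbs4) bind collagen and help set fibril thickness and spacing. Scx, a basic helix-loop-helix transcription factor, marks tendon progenitors and tenocytes and binds E-boxes, and Mkx, a homeobox factor, maintains tendon collagen production. Tnmd, a membrane glycoprotein, is a marker of mature tenocytes.

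The sequence before the transcription start is shown for Chad and Fmod, which varied together among the mice on the brighter Fmod probe. Each holds 1 E-box (CANNTG, which reads the same on both strands), set in capitals. The sequences are the 250 bases upstream of the RefSeq start on GRCm38.p6, read 5′ to 3′ on the plus strand, at chr11:94564797-94565046 for Chad and chr1:134037004-134037253 for Fmod.
Chad: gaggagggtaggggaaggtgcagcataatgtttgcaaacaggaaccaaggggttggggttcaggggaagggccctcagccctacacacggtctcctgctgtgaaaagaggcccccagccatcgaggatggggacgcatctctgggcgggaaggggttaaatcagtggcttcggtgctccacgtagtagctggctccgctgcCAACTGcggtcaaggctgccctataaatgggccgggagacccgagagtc
Fmod: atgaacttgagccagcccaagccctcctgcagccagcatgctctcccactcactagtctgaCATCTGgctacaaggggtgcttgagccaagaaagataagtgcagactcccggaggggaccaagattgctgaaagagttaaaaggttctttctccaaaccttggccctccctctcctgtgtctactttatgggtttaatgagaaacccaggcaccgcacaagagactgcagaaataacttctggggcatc
The E-box began 49 bases before the start in Chad and 189 bases before it in Fmod. Of 32851 mouse promoters of this length, 66.2% held at least 1 CANNTG, so a match is common. The Chad window also held TATAAA, which 12.4% of promoters held on either strand. Of the 9 genes, 5 were in the promoter table, and among the others there the Thbs4 window held 1 CANNTG, 115 bases before the start, and the Tnmd window held 0. The Kera window also held 0, but the start it precedes is not the outermost RefSeq start of the gene.

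Signals are given as log2 of background-corrected, quantile-normalised intensity, and SD and n refer to arrays. Median intensity before normalisation ranged from 105.2 to 137.9 over the 24 arrays, 40.2% to 46.2% of probes were detected per array, and array pairs correlated at 0.909 to 0.990. All 12 fast skeletal muscle markers listed (Ckm, Acta1, Myh4 and others) were detected on all 24 arrays. Of 14 cartilage and bone markers, 13 were on the array and 4 were tested. Markers of lymphocytes split the arrays into 11 with high and 13 with low signal, 6 and 6 of the transgenic arrays and 5 and 7 of the wild-type arrays. By group there were 4 high arrays among the transgenic exercised, 2 among the transgenic resting, 2 among the wild-type exercised and 3 among the wild-type resting. The 2 probes of Itga7, the gene of the α7 chain, differed between transgenic and wild-type mice by 0.11 (SE 0.22) and 0.06 (SE 0.23) on the log2 scale (limma adjusted p = 1.0 for both). No label says whether either probe matches the transgene, and Itga7 could not serve as a check of the genotype labels.

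Comp, cartilage oligomeric matrix protein, was the 1 gene of the 7 tested whose level passed the test between the genotypes. Its brighter probe had 8.98, 9.16 and 9.95 (lowest, median and highest) in transgenic exercised mice and 8.94, 9.26 and 9.97 in transgenic resting mice. In wild-type mice it had 9.73, 9.87 and 10.35 after the run and 9.60, 10.03 and 10.59 at rest. All 12 transgenic arrays lay below the median of the wild-type arrays and 8 of the 12 lay below the lowest wild-type array, so the genotypes overlapped in part. Averaged over both exercise states, the level was 0.69 lower in transgenic mice on the log2 scale (fell by 0.69, SE 0.14, 95% interval -0.98 to -0.41), a level 0.619 times that of wild type (limma adjusted p = 0.0222, unadjusted p = 4.07e-05). Of all 21788 probes 49 were called in this comparison (0.225%), 16 of them lower in transgenic mice (0.0734%).

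The second Comp probe had 7.07, 7.31 and 8.72 in transgenic exercised mice and 7.11, 7.60 and 8.94 in transgenic resting mice. It had 7.97, 8.75 and 9.36 in wild-type exercised mice and 7.93, 8.57 and 9.06 in wild-type resting mice. Here 10 of the 12 transgenic arrays lay below the lowest wild-type array. The averaged difference was -0.96 (SE 0.23), a level 0.513 times that of wild type, and it did not pass the threshold (limma adjusted p = 0.0995). Both probes thus had lower values in transgenic mice, and only the brighter passed.

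Within each exercise state the brighter Comp probe was -0.71 apart at rest and -0.67 apart after the run, transgenic minus wild type (SE 0.19 for both). Neither passed across all probes (limma adjusted p = 0.486 and 0.720), where 0.078% and 0.0872% of probes were called, 0.0321% and 0.0275% as lower in transgenic mice. In each state 0 of the 10 probes of these genes were called and 2 had an unadjusted p under 0.05, both of Comp. Of all 21788 probes 629 had an unadjusted p under 0.05 at rest and 650 after the run (limma). For this gene alone, exact two-sided permutation tests over the 6 and 6 arrays gave p = 0.00866 at rest and p = 0.0130 after the run, and p = 0.0346 and p = 0.0173 for the second probe. The smallest p those designs allow is 0.00216, and the gene was picked out with its averaged difference known. The difference in the effect of the run between the genotypes did not pass the test (interaction 0.04, 95% interval -0.53 to 0.61, limma adjusted p = 0.981).

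**Figure D1:**
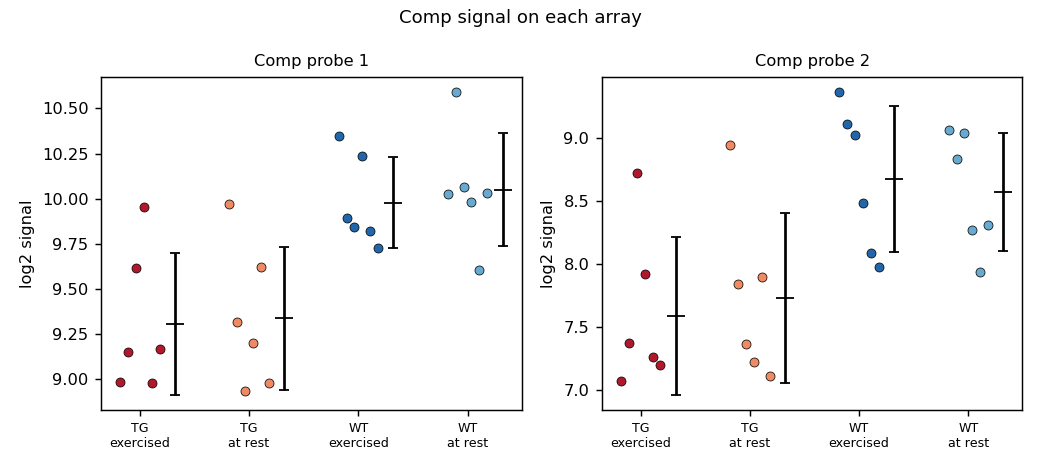
Log2 signal of both Comp probes on each of the 24 arrays (points, with the group mean and SD) in the 4 groups of 6 arrays. In the brighter probe the 2 transgenic groups averaged 9.31 and 9.34 and the 2 wild-type groups 9.98 and 10.05, with some transgenic arrays among the wild-type values.

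The call on the brighter probe ended when any 1 of 4 arrays was left out, namely wild-type exercised replicate 1 (adjusted p = 0.0518), transgenic resting replicate 11 (0.0512), transgenic exercised replicate 1 (0.0524) or transgenic exercised replicate 11 (0.0509), with differences from -0.68 to -0.66 (all limma). Over the arrays low or high in lymphocyte markers alone it was -0.57 (adjusted p = 1.0, 13 arrays) and -0.67 (adjusted p = 0.198, 11 arrays), and with the replicate number as a block it was -0.85 (adjusted p = 0.371), so the call ended in each of these settings too.

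Cartilage also makes Comp and Chad, so its markers are given beside them. Of the 13 cartilage and bone markers on the array, Col2a1, the main cartilage collagen, was detected on 24 of 24 arrays, Ibsp on 23, Col9a2 on 13 and Col9a1 on 12. Acan, the core protein of cartilage proteoglycan, was detected on 5 arrays, Bglap on 2, Snorc on 1, and Hapln1, Matn1, Matn3, Col9a3, Col10a1 and Sp7 on 0. The mean of the 4 tested markers ranged from 5.14 to 5.88 in transgenic mice and from 5.07 to 6.10 in wild-type mice, and 2 of the 4 were below 0 by genotype, with 0 called by limma and 0 at an unadjusted p under 0.05. The lymphocyte mean ranged from 6.03 to 10.73 in transgenic and from 6.07 to 10.40 in wild-type mice, the slow fibre mean from 9.81 to 11.54 and from 9.79 to 11.74. None of the 11 lymphocyte or 13 slow fibre markers tested was called in the averaged genotype comparison (0 at an unadjusted p under 0.05 in either list, against 678 of all 21788 probes). The lymphocyte median difference was -0.74 at rest and 0.97 after the run. Of the slow fibre markers 12 of 13 were higher in transgenic mice at rest and 12 of 13 lower after the run. Cd79b, for example, had an SE of 1.09, so the counts do not show equal lymphocyte signal in the genotypes.

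Comp lies on mouse chromosome 8, and it was not the only gene there with a probe called between the genotypes. Of 965 tested probes on chromosome 8, 11 were called in the averaged genotype comparison (1.14%), against 0.225% of all probes. Chromosome 7 held 19 called probes (1.42%) and chromosome 14 held 5 (0.769%). Ordered by position in RefSeq GRCm38.p6, Comp was the 215th of 611 tested genes of chromosome 8, and all 10 other called genes lay between 22 genes before it and 27 genes after it. That grouping was noticed after the values were seen and was not tested.

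The called probe was higher in transgenic mice for 5 of those 10 genes and lower for 5. Zfp930, a zinc finger gene, was higher by 0.98 (SE 0.17), and Ocel1 fell by 1.22 (SE 0.20), each on its 1 tested probe. Where a gene had further tested probes, their values are given beside the called one, and differences between probes were not tested. For Zfp869, another zinc finger gene, the called probe was higher by 1.06 (SE 0.15), and its other 2 probes were at 0.12 and 0.17 (unadjusted p = 0.323 and 0.165). For Mef2b, a MADS-box transcription factor, the called probe fell by 0.67 (SE 0.11), and its second was at -0.07 (unadjusted p = 0.581). For Zfp868 the called probe fell by 0.61 (SE 0.13) and the second was at -0.40 (SE 0.11, unadjusted p = 0.00122). For Use1, a SNARE protein of the endoplasmic reticulum, the called probe was higher by 0.41 (SE 0.06) and the second was at 0.25 (SE 0.16, unadjusted p = 0.130). The nearest called gene to Comp was Ssbp4, 4 genes away, which fell by 0.66 (SE 0.13). The called probe of Pgpep1, next to Ssbp4, was higher by 0.49 (SE 0.10) and its second was at 0.26 (unadjusted p = 0.0797). Of the 62 other probes for genes within 20 genes of Comp, 5 were called and 19 had an unadjusted p under 0.05, against 678 of all 21788 probes at that unadjusted p. Whether the Comp difference follows from the transgene or from other DNA differences near Comp between the transgenic and wild-type mice cannot be told apart with these samples.

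**Figure D2:**
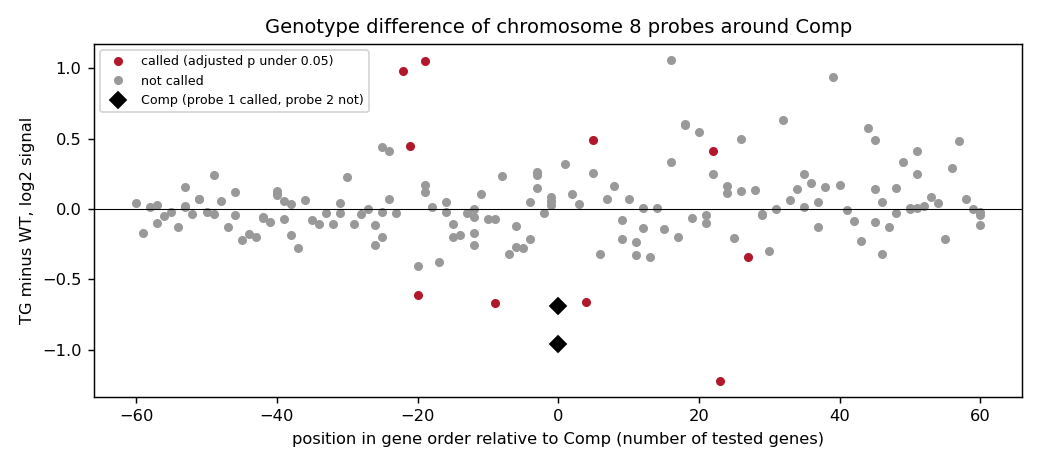
Difference between transgenic and wild-type mice (log2, averaged over exercise states) for the tested genes of chromosome 8 around Comp, plotted by gene order with Comp at 0. Genes with a called probe, on both sides of 0, run from 22 genes before Comp to 27 genes after it.

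Chad, chondroadherin, a leucine-rich repeat protein that binds collagen and an integrin on cells, had 8.38, 9.17 and 10.40 in transgenic exercised mice and 8.19, 8.96 and 9.77 in transgenic resting mice. In wild-type mice it had 9.00, 9.60 and 9.97 after the run and 8.93, 9.54 and 10.06 at rest. The ranges overlapped, and the widest spread was in the transgenic exercised mice (SD 0.75). The averaged difference was -0.42 (SE 0.21, 95% interval -0.85 to 0.01), which did not pass (limma adjusted p = 1.0).

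The remaining small leucine-rich proteoglycans had smaller differences. Kera, keratocan, first known from the cornea, averaged 9.44 ± 0.37 and 9.40 ± 0.50 in transgenic mice after the run and at rest and 9.55 ± 0.47 and 9.74 ± 0.31 in wild-type mice (SD, n = 6 each). Its averaged difference was -0.22 (SE 0.16). Fmod, fibromodulin, averaged 10.75 ± 0.36 and 10.74 ± 0.35 in transgenic mice and 10.76 ± 0.36 and 10.84 ± 0.48 in wild-type mice on its brighter probe, after the run and at rest in that order. Its 2 probes differed by -0.05 (SE 0.15) and -0.06 (SE 0.26), which bounds the change on the brighter probe at -0.37 to 0.26 with 95% confidence.

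Col14a1 encodes collagen XIV, a collagen that sits on the surface of fibrils. Its brighter probe averaged 8.29 ± 0.68 in transgenic exercised mice and 8.40 ± 0.52 in transgenic resting mice, against 8.52 ± 0.32 in wild-type exercised mice and 8.80 ± 0.35 in wild-type resting mice (SD, n = 6 each). The 2 probes differed between the genotypes by -0.32 (SE 0.19) and -0.15 (SE 0.18). Neither difference passed the threshold (limma adjusted p = 1.0 for both, unadjusted p = 0.111 and 0.416).

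The transcription factors showed no call either. Scx averaged 8.11 ± 0.55 and 8.48 ± 0.46 in transgenic mice after the run and at rest and 8.39 ± 0.55 and 8.48 ± 0.74 in wild-type mice (SD, n = 6 each), and its averaged difference was -0.15 (SE 0.22). Mkx averaged 7.06 ± 0.56 and 7.24 ± 0.44 in transgenic mice and 7.24 ± 0.48 and 7.30 ± 0.49 in wild-type mice, with a difference of -0.12 (SE 0.19). The intervals, -0.61 to 0.32 for Scx and -0.52 to 0.27 for Mkx, leave room for differences of the size of the Chad value.

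Thbs4 and Tnmd gave no level to compare. The Thbs4 probe was detected on 0 of 24 arrays, with unnormalised intensities of 101.7 to 128.9 in transgenic mice and 97.7 to 131.2 in wild-type mice. The Tnmd probe was detected on 2 of 24 arrays, both of wild-type mice, with intensities of 104.8 to 134.4 in transgenic mice and 101.7 to 141.9 in wild-type mice. These readings are near the arrays' median intensity. They show that the signal did not stand above background, not that the transcripts were absent.

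All 10 tested probes were below 0 in the averaged genotype comparison, with a median of -0.19, while 50.8% of all 21788 probes were below 0 and their median was -0.0019. After the run 9 of 10 were below 0 and at rest 10 of 10, against 51.6% and 48.7% of all probes. Only the brighter Comp probe was called, and the genes correlated from mouse to mouse, so the 10 probes are not separate observations. Apart from Comp, the mean of the other 6 genes was 8.81 ± 0.38 in transgenic exercised mice and 8.88 ± 0.32 in transgenic resting mice, against 9.00 ± 0.33 in wild-type exercised mice and 9.12 ± 0.40 in wild-type resting mice (SD, n = 6 each). The groups overlapped. With that mean entered as a covariate, a setting chosen after seeing the data, the brighter Comp probe was -0.53 apart (SE 0.10, limma adjusted p = 0.00815) and the second -0.78 apart (adjusted p = 0.160). In bulk tissue, fewer cells of a type in the sample and less RNA per cell cannot be told apart, and how much tendon each dissection held is not given.

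**Figure D3:**
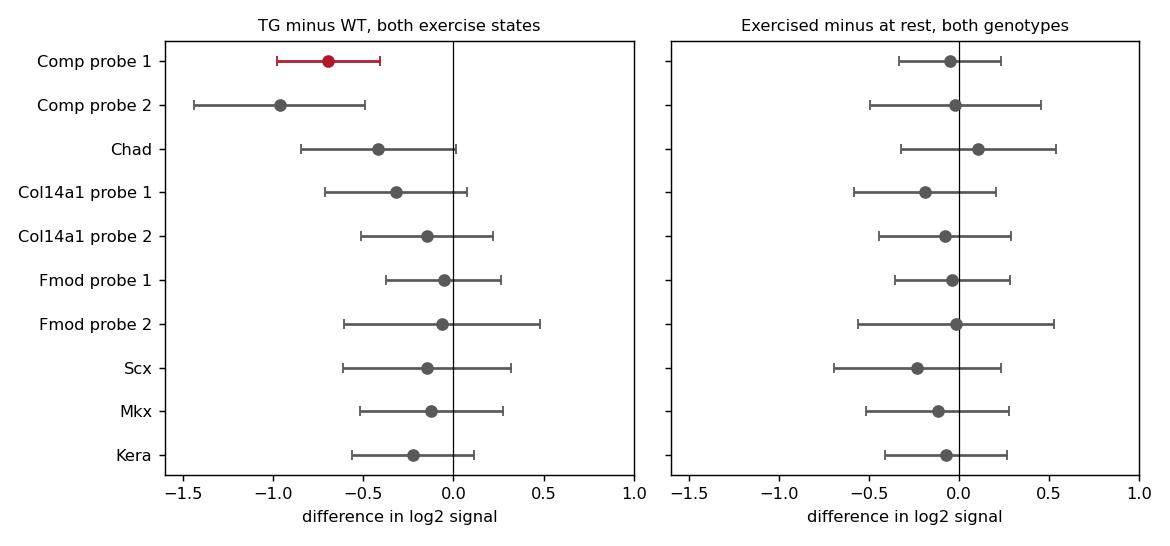
Difference in log2 signal for each tested probe of the 7 genes in the comparisons by genotype and by exercise, with 95% intervals from limma; red marks an adjusted p under 0.05. Only the brighter Comp probe is red, at -0.69 in the averaged genotype comparison.

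No gene of the 9 passed the test for the run at 3 h. In the comparison of exercised with resting mice averaged over the genotypes, 0 of the 10 probes were called by limma, 0 had an unadjusted p under 0.05, and of all 21788 probes 2 were called (0.00918%) and 825 had an unadjusted p under 0.05. The differences ranged from -0.23 for Scx (SE 0.22) to 0.11 for Chad (SE 0.21), and 9 of 10 were below 0, against 52.4% of all probes. The brighter Comp probe averaged -0.05 (SE 0.14, 95% interval -0.33 to 0.23). In transgenic mice alone the run differences ranged from -0.37 to 0.22 with 1 probe of all called (0.00459%) and 968 at an unadjusted p under 0.05, and in wild-type mice alone from -0.27 to 0.10 with 0 of all called (0%) and 451 at an unadjusted p under 0.05. No interaction was called for any probe (0 of 21788 by limma, 495 at an unadjusted p under 0.05).

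**Figure D4:**
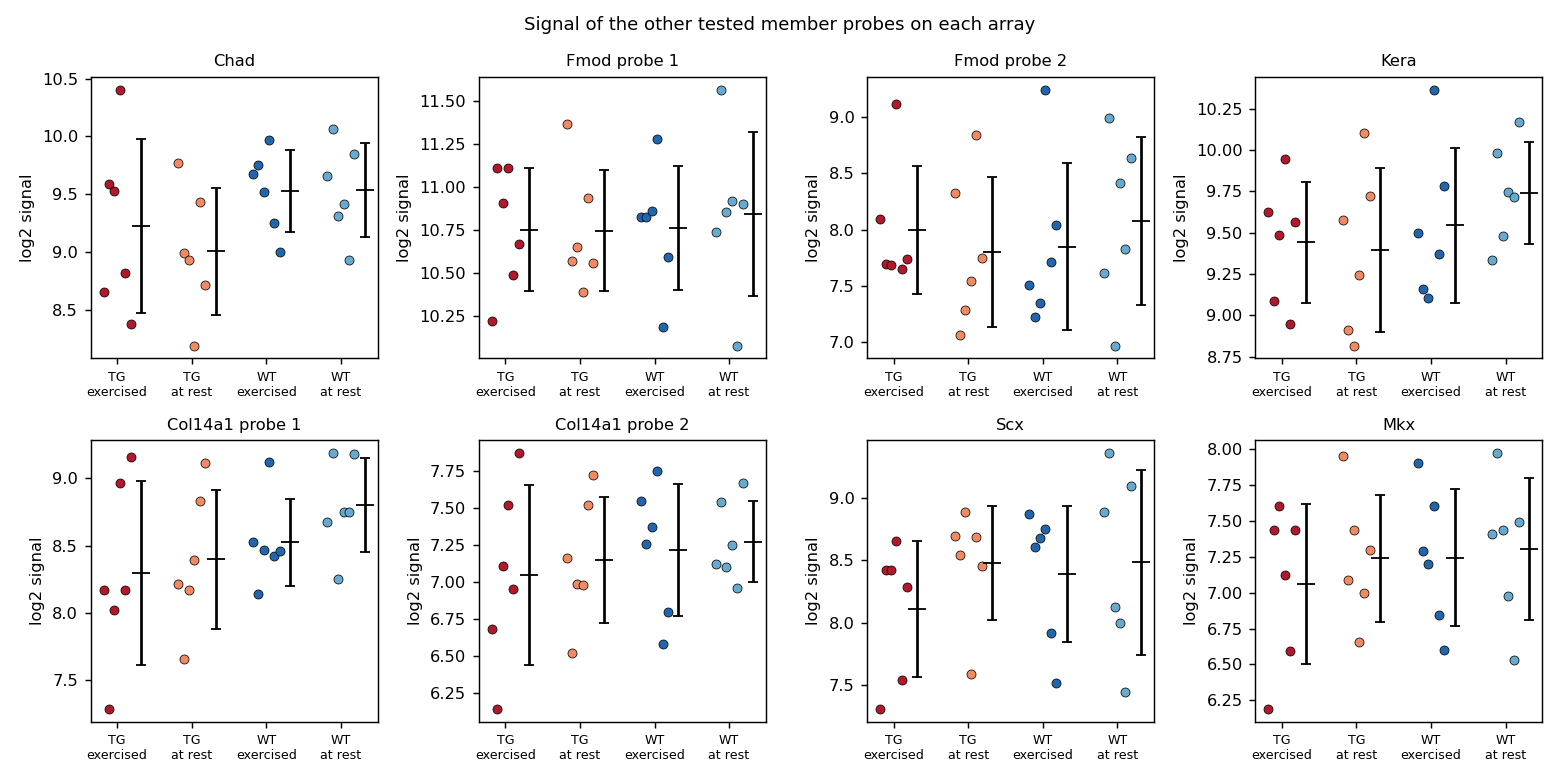
Log2 signal on each array for the tested probes of Chad, Col14a1, Fmod, Kera, Scx and Mkx in the 4 groups of 6 arrays (points, with mean and SD). The 4 groups overlap for each probe.

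Among individual mice several of the genes varied together. Correlations were taken over 24 arrays on deviations from the group means, for the 21 pairs among the brighter probe of each gene, and tested by 100000 permutations within groups. All 21 were positive and 11 had a Benjamini-Hochberg adjusted p under 0.05. With the group means removed again in each subset, 20 of 21 pairs were positive and 4 passed within the 13 arrays low in lymphocyte markers. Within the 11 high arrays 11 of 21 were positive and 1 passed. Permuting within their groups of 2 to 4 arrays allows few orders, so the counts that passed in the low and high arrays are not comparable.

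Chad and Fmod were among the strongest pairs (r = 0.79, permutation p = 1e-05, the smallest that 100000 permutations can give, adjusted p = 0.000105; rho = 0.86, adjusted p = 0.00021). Without the 2 arrays farthest from the median of Chad r was 0.87, and it was 0.80 within the low and 0.61 within the high lymphocyte arrays (adjusted p = 0.0168 and 0.194). Comp correlated with Chad at r = 0.80 (rho = 0.77, adjusted p = 0.00014 and 0.000315), with 0.84 in the low and 0.45 in the high arrays (adjusted p = 0.0365 and 0.313). Comp and Fmod gave r = 0.78 (rho = 0.77, adjusted p = 0.000168 and 0.00042), with 0.85 in the low and 0.77 in the high arrays (adjusted p = 0.0365 and 0.173). By rho neither Comp pair passed in the low arrays (adjusted p = 0.120 for both). These Fmod values are of its brighter probe. With the second Fmod probe, Chad gave r = 0.52 and Comp 0.55 (adjusted p = 0.0191 and 0.0179 over 45 probe pairs). By rho these were 0.35 and 0.30 (adjusted p = 0.164 and 0.242), and r in the high arrays was -0.23 and -0.36. Scx and Mkx had the highest r (0.85, rho = 0.79, adjusted p = 0.000105 and 0.00028), with 0.41 in the low and 0.93 in the high lymphocyte arrays (adjusted p = 0.388 and 0.0344).

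Kera and the brighter Col14a1 probe gave r = 0.72 (rho = 0.70, adjusted p = 0.000656 and 0.00213), with 0.81 in the low and 0.62 in the high lymphocyte arrays (adjusted p = 0.0365 and 0.317). Kera with Comp gave r = 0.46 (rho = 0.39, adjusted p = 0.0605 and 0.151). In the low lymphocyte arrays Kera gave 0.50 with Comp, 0.50 with Chad and 0.49 with Fmod, and in the high arrays -0.22, -0.65 and -0.24, none of which passed. Chad and Col14a1 gave r = 0.06 over all arrays (adjusted p = 0.842), with 0.24 in the low and -0.87 in the high arrays (adjusted p = 0.728 and 0.140). Among the probes of 1 gene, the 2 Col14a1 probes gave r = 0.86 and the 2 Comp probes 0.74, whereas the 2 Fmod probes gave 0.51 with rho = 0.37. Kera gave 0.87 with the second Fmod probe and 0.35 with the brighter one over all arrays.

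**Figure D5:**
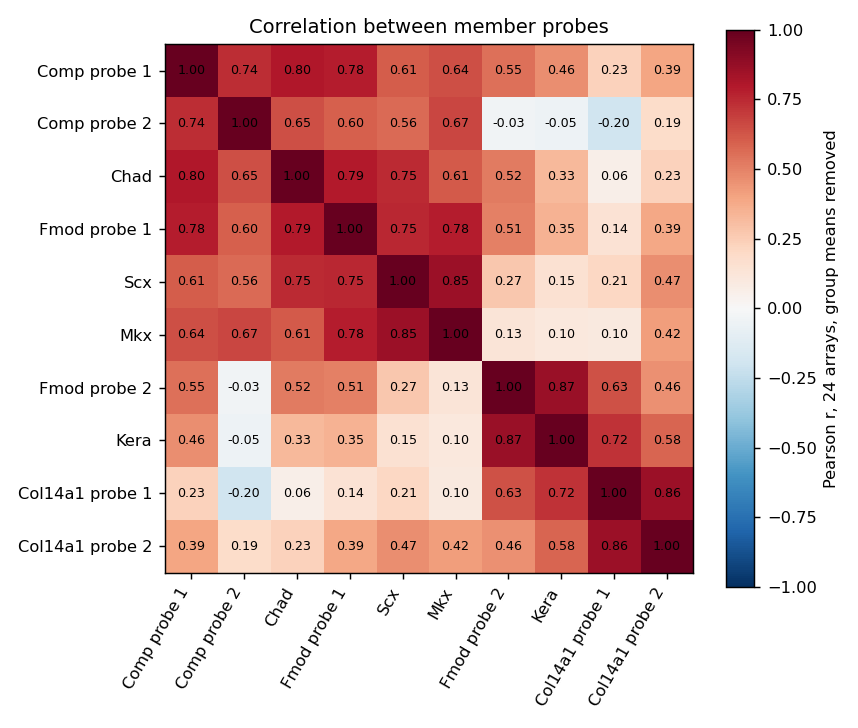
Pearson correlation over 24 arrays of deviations from the group means between the tested probes of the 7 genes; the order of the probes was chosen after seeing the values. Values among Comp, Chad, Fmod probe 1, Scx and Mkx run from 0.56 to 0.85. Those among Kera, both Col14a1 probes and Fmod probe 2 run from 0.46 to 0.87, and Fmod probe 2 also gives 0.55 with Comp probe 1 and 0.52 with Chad.

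Marker lists of other tissue also moved with the genes, each taken on its brighter probe unless the second is named. Over all 24 arrays the lymphocyte mean correlated with Scx at -0.86, Mkx -0.73, Chad -0.66, Fmod -0.62 and Comp -0.55 (permutation adjusted p = 0.00042, 0.00222, 0.00347, 0.00753 and 0.0201). With Col14a1 and Kera it gave -0.38 and -0.27, which did not pass. The second probes of Col14a1, Comp and Fmod gave -0.66, -0.61 and -0.28 with it (unadjusted permutation p = 0.00123, 0.0036 and 0.225). For Col14a1 and Fmod the value thus depended on the probe. The cartilage mean gave 0.81 with Mkx and 0.79 with Scx (adjusted p = 0.00042 for both). Of its 4 tested markers 1 was detected on all 24 arrays, so part of the cartilage mean can be background. The skeletal muscle mean gave 0.69 with Mkx and 0.78 with Scx (adjusted p = 0.00347 and 0.00042). The slow fibre mean gave 0.74 and 0.73 (adjusted p = 0.00193 and 0.00222). The mean of the adipocyte markers gave -0.66 with Scx, -0.64 with Chad, -0.59 with Fmod and -0.58 with Mkx (adjusted p = 0.00322, 0.00231, 0.00865 and 0.0102). The mean of the Schwann cell markers gave 0.52 with Mkx (adjusted p = 0.0353). Within the 13 arrays low in lymphocyte markers, the mean of 13 slow fibre markers (the soleus is rich in slow fibres) correlated with Kera at r = -0.90 (rho = -0.92, adjusted p = 0.0105 for each) and with Col14a1 at r = -0.88 (rho = -0.84, adjusted p = 0.0213 and 0.0394), over 42 pairs of gene and marker list. In the 11 high arrays these were -0.39 and -0.47, and the slow fibre mean correlated with Scx at 0.91 (adjusted p = 0.116) and Mkx at 0.85 (adjusted p = 0.116), against -0.27 and 0.17 in the low arrays. Comp in the high arrays gave 0.78 with the slow fibre mean, 0.83 with the skeletal muscle mean and 0.64 with the cartilage mean (adjusted p = 0.116, 0.105 and 0.376), against -0.30, -0.20 and -0.05 in the low arrays. The second Comp probe gave 0.85, 0.75 and 0.78 in the high arrays and 0.52, 0.40 and 0.35 in the low arrays. The change of sign between the subsets was thus on the brighter Comp probe only. The cartilage mean gave 0.83 with Mkx in the high arrays (adjusted p = 0.116) and 0.52 in the low arrays. The skeletal muscle mean gave -0.81 with Kera and -0.78 with Col14a1 in the low arrays (adjusted p = 0.0209 for both), and -0.24 and -0.50 in the high arrays. The lymphocyte mean correlated in the low arrays with Chad at 0.84 (adjusted p = 0.0209), with Fmod at 0.80 (adjusted p = 0.0232) and with Comp at 0.71 (adjusted p = 0.143). In the high arrays these were 0.02, -0.48 and -0.72 (adjusted p = 0.0727 for Comp). The second probes of Comp and Fmod gave 0.13 and 0.86 with the lymphocyte mean in the low arrays, and -0.40 and 0.25 in the high arrays. Of the 11 lymphocyte markers tested 4 were detected on all 24 arrays, while Ms4a1 was detected on 10 and Ltb and Cd37 on 12. Part of the lymphocyte mean can therefore be background in the low arrays. The part of that mean in the pairs of Comp, Chad and Fmod within the low arrays was not tested. Of the 42 pairs 6 passed within the low arrays and 0 within the high arrays, where 14 had an unadjusted p under 0.05. Permutation within groups of 2 to 4 arrays allows few orders in the high arrays, and the smallest p there is near 0.00173. Comp with the lymphocyte mean had that p and an adjusted p of 0.0727, so no pair could pass alone. The counts of pairs that passed in the low and high arrays are therefore not comparable. With the means of the lymphocyte and slow fibre markers as covariates, the second Comp probe was called too (adjusted p = 0.00269).

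The gene most like each of the 7, by the correlation of deviations over 24 arrays among 11239 candidate genes that passed the detection filter, was as follows. For Comp it was Itgbl1 (r = 0.82), a protein related to integrin β chains, and for Chad it was Epdr1 (0.84). For Fmod it was Col8a2 (0.90), a chain of collagen VIII, which was also second for Comp (0.80). For Scx it was Lrp4 (0.92), for Mkx Ccn4 (0.90), for Kera Pcolce2 (0.91), an enhancer of procollagen processing, and for Col14a1 H4c8 (0.92). None of these genes was called by genotype (averaged differences of -0.16 to 0.09).

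Other genes of tendon and of the myotendinous junction were listed as context. In the averaged genotype comparison 0 of 19 tested proteoglycan and matrix genes, 0 of 12 fibril collagens, 0 of 20 junction genes and 0 of 17 tendon regulators were called by limma, against 0.225% of all probes. At an unadjusted p under 0.05 the counts were 0, 2, 0 and 1 in that order, against 678 of all 21788 probes. Of the fibril collagens 11 of 12 were below 0, with a median of -0.10, against 50.8% of all probes. At rest 11 of 12 were below 0 (median -0.19), and after the run 6 of 12 were (median -0.0041), against 48.7% and 51.6% of all probes. Col1a2 and Col1a1, the chains of collagen I, differed by -0.37 (SE 0.14, unadjusted p = 0.0138) and -0.29 (SE 0.14, unadjusted p = 0.0487), with adjusted p = 1.0 for both. Among regulators Igf1, a growth factor that stimulates tenocytes, differed by -0.31 (SE 0.10, adjusted p = 0.590). For the run, averaged over the genotypes, 0 genes of these 4 lists were called by limma. At an unadjusted p under 0.05 there were 1 matrix gene and 1 regulator, against 825 of all 21788 probes. Vcan, a large proteoglycan of loose matrix, differed by 0.50 (SE 0.15, adjusted p = 0.765), and Ankrd1, a stretch-responsive muscle protein, by 0.92 (SE 0.46, adjusted p = 0.998).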

How the data were processed

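Per the labels' protocols, total RNA of frozen muscle was made into biotinylated cRNA and hybridised. The deposited table gives unnormalised linear intensities with a detection p-value beside each, per the file headers. A second deposited table holds the authors' log2 values, and the submitters' processing notes list limma 3.20.8 and R 3.1.1 with no role. It differed from the values here by at most 0.0269. No source used here names the bead summary software.

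Intensities were corrected and quantile-normalised with neqc (limma 3.58.1, R 4.3.3, offset 16, detection p-values in place of control probes). Probes with detection p under 0.05 on at least 6 arrays were kept. A 4-group limma model was fitted to 24 arrays and p-values were adjusted by Benjamini-Hochberg over 21788 probes, with an adjusted p under 0.05 as the threshold. It was tested on simulated data with independent normal noise in each probe, a setting without the correlations between probes seen here. Probes stayed separate. Genes were named by rule: the members, the 3 most correlated genes of each, up to 4 genes per list with the smallest p-values, Itga7 and Itgb1. The chromosome 8 genes were named after their values were seen. The members and lists were chosen with earlier results of these data known. Precision is limited by 6 arrays per group, and p-values rest on the spread between arrays, each taken as 1 mouse.

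Alternatives were scaling, filter, offset, deposited values, array weights, replicate block, marker covariates, lymphocyte subsets and leaving out each array. Shared replicate numbers were checked by correlating deviations. At rest all 3 numbers gave over 0.1 (0.321, 0.655 and 0.399), so they may pair the arrays there; elsewhere at least 1 did not. Slide and scan date are not given.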

Additional observations from a re-analysis of the deposited data

Results flagged for a closer look

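In 48 tests of 1 probe in 1 group, 2 arrays stood apart from the rest of their group, and chance alone gives about 1 in 20. The second Fmod probe was at 9.12 in transgenic exercised replicate 5. Scx was at 7.59 in transgenic resting replicate 7, the lowest array of that group.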

How the results depend on the processing

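For the brighter Comp probe the averaged genotype difference stayed below 0 in all 24 fits that left out 1 array (-0.76 to -0.64, limma adjusted p = 0.00512 to 0.0524) and in 15 other settings (-0.85 to -0.53). It passed in 20 of 24 and in 12 of 15. With a replicate block it was -0.85 (adjusted p = 0.371), within the arrays low in lymphocyte markers -0.57, and within the high arrays -0.67, none of which passed; both subsets hold fewer arrays, and the block leaves fewer residual degrees of freedom. The number of tested member probes called was 0 in those 3 settings and 0 to 2 when 1 array was left out. It was 2 with median scaling, array weights, the lymphocyte mean, the slow fibre mean or both means as covariates. For the probes of the other genes, 0 of 2146 values over all comparisons and settings were called by limma and 159 changed sign, 9 of them in the averaged genotype comparison.

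Of all probes, 49 were called by averaged genotype, 39 to 54 when 1 array was left out and 8 to 125 in other settings. At rest, where shared replicate numbers may pair the arrays, the replicate block brought 17 calls to 3; none of the 10 probes was called there without it, so it had no such call to end. Over both states it ended the Comp call, as given above. Called correlations between the genes numbered 11 of 21, with 4 in the low and 1 in the high lymphocyte arrays, and 24 of 45 over all tested probes. Those with marker lists numbered 22 of 42, with 6 in the low and 0 in the high arrays. The high arrays allow few permutations within groups, so the low and high counts are not comparable. Array number limits precision, and signal at background limits Thbs4 and Tnmd.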
